A study of Cavia porcellus with 10 samples.

Results

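The 10 genes described here are the VEGF ligands VEGFA, VEGFB and VEGFC, the VEGF receptors FLT1, KDR and FLT4, the endothelial junction genes PECAM1 and CDH5, and the angiopoietin ligand ANGPT1 with its receptor TEK. They were taken by symbol, ignoring case, from the 17642 lines of the scleral count table that carry a gene symbol. Each symbol stood on 1 line, and all 10 passed the filter on low counts, which left 14683 genes to test. RNA was taken from whole sclera, the tough, collagen-rich coat that gives the eye its shape, of male guinea pigs (Cavia porcellus) aged 2 to 3 weeks. In the myopia group both eyes wore lenses that induce nearsightedness, and control animals were left untreated. There were 5 libraries a group, with 1 eye behind each, and total counts from 32309258 to 35430797. Neither the strain nor the animal behind each eye is in the labels, so 2 libraries of a group may share an animal and the p-values cover only the spread among these eyes. The comparison asks which transcripts of the sclera differ between lens-treated and untreated eyes.

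VEGF ligands are secreted growth factors that bind tyrosine kinase receptors on endothelial cells, the lining of blood and lymph vessels. KDR (VEGF receptor 2) carries most of the growth signal of VEGFA. FLT1 (VEGF receptor 1) binds VEGFA, VEGFB and PGF and can hold VEGFA away from KDR, and FLT4 (VEGF receptor 3) binds VEGFC and serves lymphatic vessels. Angiopoietin-1, made by cells around the vessel, activates TEK and steadies the vessel wall. The sclera itself holds few vessels, while the choroid beneath it is densely vascular.

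Of the 10 genes, 5 rose and 1 fell in the myopic sclera, and 4 did not pass the test. VEGFA, FLT1, KDR, TEK and ANGPT1 each stood at 2.03 to 2.41 times their control level. VEGFB fell to 0.348 times its control level, in the direction opposite to VEGFA. VEGFC, FLT4, CDH5 and PECAM1 did not pass. The test was edgeR's quasi-likelihood test with Benjamini-Hochberg adjustment over all 14683 genes, and a gene passed at an adjusted p under 0.05. The share of all tested genes that passed was 71.9% (36.9% higher and 35.1% lower), so 6 of 10 is no more than the background. In the same 6 genes the 5 myopia eyes lay wholly to one side of the 5 control eyes (5 above and 1 below), which held for 57.8% of all tested genes (29.8% above and 28% below). Levels below are CPM values (counts scaled to library size) corrected with TMM factors, given as mean ± SD over n = 5 eyes a group. Fold changes are log2 values, myopia minus control, with their SE.

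The libraries differed along a main direction that also spread the untreated eyes. On the first principal component of log2 CPM the control libraries lay between -94.6 and -24.6 and the myopia libraries between 61.5 and 72.5, with control 4 and 5 nearest to myopia. The TMM factors of control libraries ran from 0.777 to 0.968, and those of myopia libraries from 1.11 to 1.25. Genes with RPS or RPL symbols held 6.49% to 9.26% of the counts in control libraries against 4.04% to 4.50% in myopia libraries, and lines with no symbol 1.18% to 1.69% against 0.751% to 0.824%. Their part in the changes below was not tested. Scaling by total count instead shifted the median over all genes from 0.03 to 0.47 on the log2 scale, and the share of calls that were higher went from 51.2% to 73.5%. Of the 10 genes 8 were then higher and 1 lower. Higher and lower here are therefore relative to the TMM scale. Without control 4 and 5, a step added once the values had been looked at, 6 of the 10 were higher and 1 lower.

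**Figure D1:**
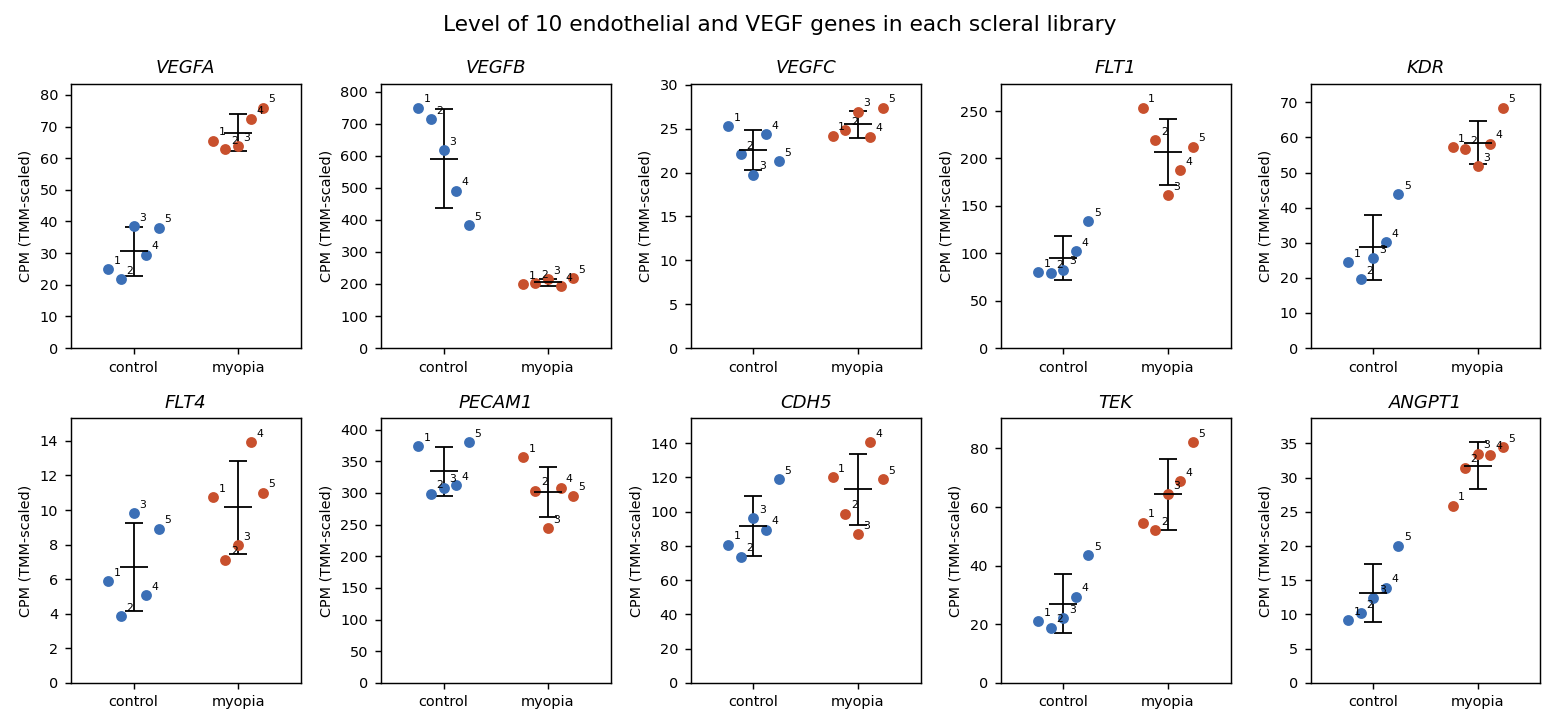
Level of each of the 10 genes in CPM scaled with TMM factors (y axis, linear from 0) in the 5 control and 5 myopia libraries (points, numbered by library), with mean and SD (bars). For VEGFA, FLT1, KDR, TEK and ANGPT1 every myopia point lies above every control point, for VEGFB every myopia point lies below, and for the other 4 genes the groups overlap.

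VEGFA, the principal angiogenic ligand, was at 24.9, 21.7, 38.5, 29.5 and 38.1 CPM in control libraries 1 to 5. In myopia libraries 1 to 5 it was at 65.6, 62.8, 63.7, 72.3 and 76.0 CPM. The groups did not overlap, and the lowest myopia eye lay well above the highest control eye. The log2 fold change was 1.16 ± 0.15 (adjusted p = 1.35e-05), which lay above that of 83.6% of the genes tested. The spread between eyes was 24.9% of the mean in control and 8.49% in myopia.

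VEGFB, which binds FLT1 but not KDR, moved the other way. It was at 750, 714, 616, 492 and 382 CPM in control libraries 1 to 5, and its myopia libraries at 199, 203, 216, 192 and 217 CPM. Control 5, the lowest untreated eye, was still above every myopia eye. The log2 fold change was -1.52 ± 0.16 (adjusted p = 2.68e-06), and only 2.99% of the genes tested had a fold change as low. The untreated eyes differed more among themselves than the myopic eyes did, with an SD of 26.0% of the mean against 5.23%. Without control 4 and 5 the log2 fold change was -1.74 ± 0.09.

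VEGFC, the ligand of lymphatic growth, was at 25.2, 22.1, 19.8, 24.4 and 21.3 CPM in control and at 24.2, 24.8, 26.9, 24.1 and 27.4 CPM in myopia. The groups overlapped. The log2 fold change of 0.18 ± 0.10 did not pass (adjusted p = 0.11), and its 95% interval ran from -0.03 to 0.38. With scaling by total count it was 0.63, and with upper quartile factors 0.25, and it passed under both (adjusted p = 9.01e-05 and 0.0288).

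The receptors of the blood vessel, FLT1 and KDR, rose by similar amounts. FLT1 was at 80.3, 79.3, 82.6, 102 and 134 CPM in control and at 254, 219, 162, 188 and 212 CPM in myopia. KDR was at 24.5, 19.7, 25.6, 30.1 and 43.9 CPM in control and at 57.3, 56.6, 51.8, 58.2 and 68.5 CPM in myopia. For both genes control 5 was the highest untreated eye, and no myopia eye came down to it. Their log2 fold changes were 1.11 ± 0.16 (adjusted p = 3.14e-05) and 1.02 ± 0.18 (adjusted p = 0.000157). Without control 4 and 5 these were 1.37 and 1.34.

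FLT4, the receptor of VEGFC, had the fewest reads of the 10 and the largest spread between eyes relative to its mean. It was at 5.88, 3.84, 9.83, 5.09 and 8.93 CPM in control and at 10.8, 7.13, 7.98, 13.9 and 11.0 CPM in myopia. Myopia 2 and 3 lay within the control range. The log2 fold change of 0.60 ± 0.26 missed the threshold (adjusted p = 0.0527), with a 95% interval from 0.04 to 1.16. It passed in 11 of 22 alternative analyses, among them DESeq2 (adjusted p = 0.0418) and limma-voom (adjusted p = 0.0371). Leaving out control 3, control 5, myopia 2 or myopia 3 also brought it past the threshold, with log2 fold changes of 0.79, 0.74, 0.70 and 0.67.

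**Figure D2:**
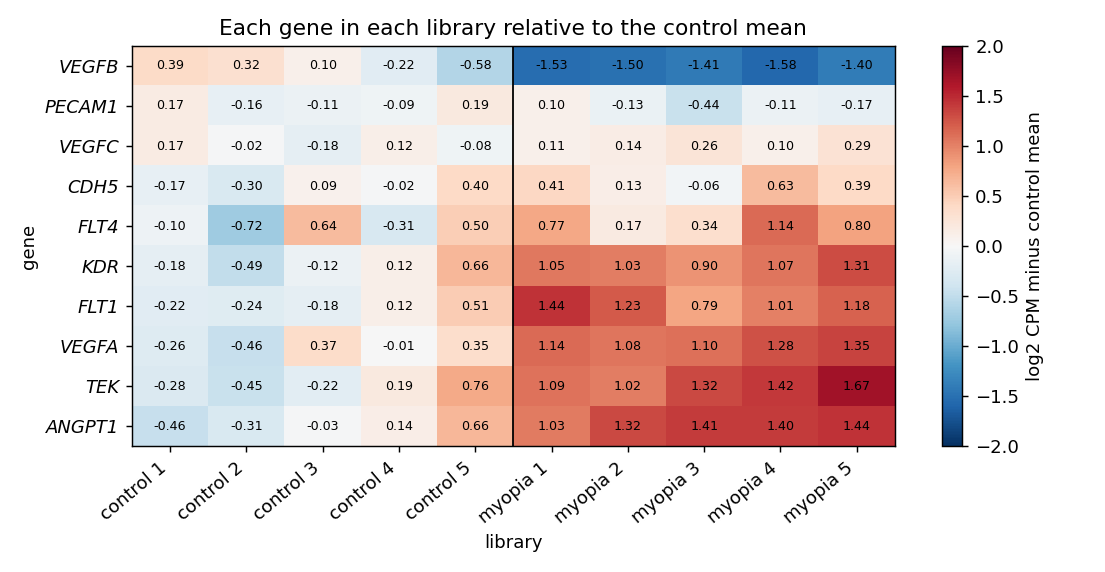
Log2 CPM of each gene (rows, ordered by fold change) in each library (columns) minus the mean of the 5 control libraries, with the value printed in each cell. VEGFB is at -1.58 to -1.40 in the myopia libraries and FLT1, KDR, VEGFA, TEK and ANGPT1 at 0.79 to 1.67, while control 5 lies on the myopia side of the control mean for those 6 genes.

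PECAM1 and CDH5 code for adhesion proteins of endothelial cell contacts. PECAM1 (CD31), which platelets and white blood cells also carry, was at 373, 299, 308, 313 and 380 CPM in control and at 356, 304, 245, 308 and 296 CPM in myopia. CDH5 (VE-cadherin), the cadherin of endothelial junctions, was at 80.6, 73.6, 96.1, 89.4 and 119 CPM in control and at 120, 98.9, 86.9, 140 and 119 CPM in myopia. The groups overlapped for both. The log2 fold change of PECAM1 was -0.15 ± 0.11 (adjusted p = 0.254, 95% interval -0.40 to 0.10) and became 0.30 with scaling by total count. That of CDH5 was 0.30 ± 0.15 (adjusted p = 0.0801, 95% interval -0.01 to 0.62). CDH5 passed as higher without control 5 (0.43, adjusted p = 0.0109), without myopia 3 (0.38, adjusted p = 0.0307) and without control 4 and 5 (0.45, adjusted p = 0.0205). It also passed with limma-voom with sample quality weights (0.36, adjusted p = 0.0218) and with scaling by total count (0.74, adjusted p = 0.00407). In whole tissue, a change in the number of endothelial cells and a change in RNA per endothelial cell cannot be told apart.

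TEK (TIE2) was at 21.1, 18.8, 22.1, 29.4 and 43.6 CPM in control and at 54.6, 52.0, 64.3, 68.7 and 82.0 CPM in myopia. ANGPT1 was at 9.19, 10.2, 12.4, 13.9 and 20.0 CPM in control and at 25.9, 31.4, 33.5, 33.3 and 34.4 CPM in myopia. Neither gene's groups overlapped, although control 5 held 2.06 and 2.18 times the level of control 1. Receptor and ligand had log2 fold changes of 1.25 ± 0.22 (adjusted p = 0.000205) and 1.27 ± 0.18 (adjusted p = 3.34e-05). Without control 4 and 5 they were 1.65 and 1.59.

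Ratios of counts between gene pairs within a library do not depend on how libraries are scaled to each other, and 8 were compared between the groups. A ratio is not a ratio of molecules, since transcript lengths were not used, so only its change between groups is read. VEGFA reads per VEGFB read stood at 0.0304 to 0.0996 in control and at 0.295 to 0.376 in myopia, a 6.37-fold rise of the geometric mean. VEGFC reads per VEGFA read were 0.513 to 1.02 in control and lower, at 0.333 to 0.423, in myopia. TEK reads per CDH5 read rose 2.00-fold, from a range of 0.230 to 0.366 to one of 0.454 to 0.740. PECAM1 reads per CDH5 read were 3.19 to 4.63 in control and lower, at 2.19 to 3.07, in myopia. Each of these 4 ratios separated all myopia eyes from all control eyes. How often ratios of other gene pairs do so was not computed, and 57.8% of all tested genes separated the groups on their own. In the exact two-sided permutation test each had p = 0.00794, the smallest that 5 against 5 allows. After Benjamini-Hochberg adjustment over the 8 ratios each had an adjusted p of 0.0159. For VEGFA:VEGFB that outcome was fixed in advance and adds no evidence, since in myopia VEGFA lay wholly above control and VEGFB wholly below. For VEGFC:VEGFA it was fixed as well, by the ranges of both genes, and adds no evidence. VEGFC lay at 19.8 to 25.2 CPM in control and 24.1 to 27.4 CPM in myopia. VEGFA lay at 21.7 to 38.5 CPM in control and 62.8 to 76.0 CPM in myopia.

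The other 4 ratios overlapped between the groups. FLT1 reads per KDR read ranged over 3.04 to 4.03 among control eyes and 3.10 to 4.43 among myopia eyes (exact permutation p = 0.698, adjusted 0.798). FLT4 reads per KDR read were 0.169 to 0.385 and 0.126 to 0.239 (exact permutation p = 0.119, adjusted 0.19). ANGPT1 reads per TEK read were 0.436 to 0.561 and 0.419 to 0.605 (exact permutation p = 0.905, adjusted 0.905). ANGPT2 reads per ANGPT1 read, which set the context-dependent partner of TEK against its agonist, were 0.637 to 0.957 and 0.711 to 0.938 (exact permutation p = 0.357, adjusted 0.476). A p that misses the threshold does not show that the ratios are equal. Other ratios, chosen after the values were seen, are given without a test. KDR reads per CDH5 read ranged over 0.266 to 0.369 among control eyes and 0.415 to 0.596 among myopia eyes, and FLT1 reads per CDH5 read 0.859 to 1.14 and 1.34 to 2.22. VEGFA reads per HIF1A read overlapped between the groups, spanning 0.520 to 0.871 in untreated eyes and 0.486 to 0.703 in lens-treated eyes.

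**Figure D3:**
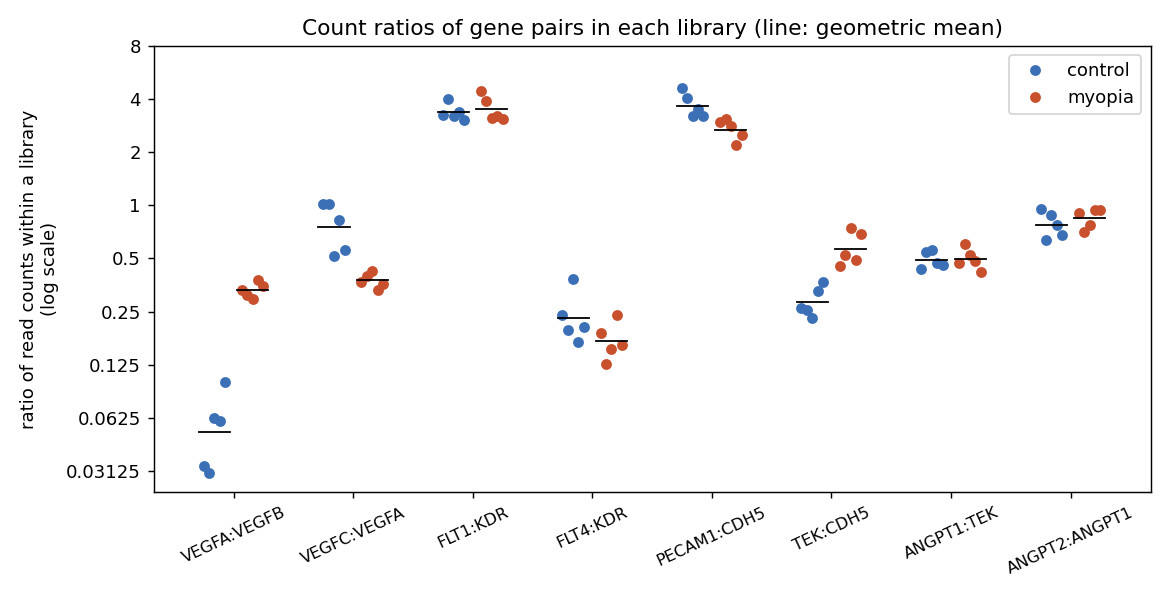
Ratio of read counts of gene pairs (x axis) within each library on a log scale (y axis) in control and myopia, 5 points each, with the geometric mean as a line. VEGFA:VEGFB, VEGFC:VEGFA, PECAM1:CDH5 and TEK:CDH5 separate the groups, and the other 4 pairs overlap.

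The other ligands, co-receptors and partners of these pathways also split. Of 11 tested, 5 rose, 3 fell and 3 did not pass (median log2 change 0.46, against 0.03 over all genes). Over all tested genes 36.9% were higher and 35.1% lower. The count of 5 higher was 3 without control 1, control 4 or myopia 3. PTPRB (VE-PTP), the phosphatase that restrains TEK, rose by 2.28 ± 0.17 on the log2 scale, from 32.6 ± 8.7 to 158 ± 27 CPM (adjusted p = 3.73e-07). ANGPT2 rose from 10.1 ± 2.7 to 27.0 ± 4.5 CPM, by 1.42 ± 0.18 on the log2 scale. NRP1, a co-receptor of VEGFA with KDR, rose by 0.85 ± 0.17, while NRP2, the co-receptor tied to VEGFC, was at -0.10 ± 0.13 (adjusted p = 0.497). TIE1, the orphan relative of TEK, was at 0.07 ± 0.14 (adjusted p = 0.688). PGF, like VEGFB a ligand of FLT1 and not of KDR, fell from 117 ± 22 to 56.3 ± 6.2 CPM, by 1.06 ± 0.13 on the log2 scale (adjusted p = 1.07e-05), and was at -0.59 with scaling by total count, where it still passed. There were thus 2.10 to 6.08 PGF reads per VEGFA read in control and 0.744 to 0.882 in myopia, a ratio also chosen after its values were seen.

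Among 33 tested markers of endothelial cells 9 rose, 17 fell and 7 did not pass (median log2 change -0.35). The higher and lower shares of all genes, 36.9% and 35.1%, are the background for that split. KLF2, a shear-stress transcription factor of endothelium, fell from 265 ± 40 to 119 ± 13 CPM (log2 fold change -1.16 ± 0.12). CALCRL, a receptor for adrenomedullin, rose by 1.33 ± 0.14, and RAMP2, a partner with which it binds that ligand, fell by 1.59 ± 0.17 on the log2 scale. Other markers, 7 of them named after their values were seen, ran both ways. PLVAP, a protein of fenestrated capillaries such as those of the choroid, fell by 1.18 ± 0.14, ENG by 1.04 ± 0.12, CD34 by 0.68 ± 0.10 and VWF by 0.49 ± 0.16, although VWF did not pass with scaling by total count (-0.036). The endothelial and blood-forming transcription factors TAL1 and LYL1, which are close relatives, had log2 fold changes of 1.35 ± 0.18 and -1.11 ± 0.19. ERG, an endothelial transcription factor, was at 0.25 ± 0.14 (adjusted p = 0.122), passed as higher without myopia 3 (0.33) and with scaling by total count (0.68), and was at 0.13 without myopia 2. No measured marker was at 0 in all libraries. The markers summed to 3468 to 4771 CPM in control and 2304 to 3101 CPM in myopia. RAMP2 alone held 704 to 1411 CPM in control and 303 to 356 CPM in myopia, so the sums lean heavily on that gene. The split between higher and lower markers depended on the scaling. With scaling by total count, 9 of the markers were lower instead of 17, and TIE1 (0.53) and ERG passed as higher. KLF2, PLVAP, ENG, CD34 and LYL1 then passed with smaller log2 fold changes of -0.70, -0.72, -0.57, -0.24 and -0.64.

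**Figure D4:**
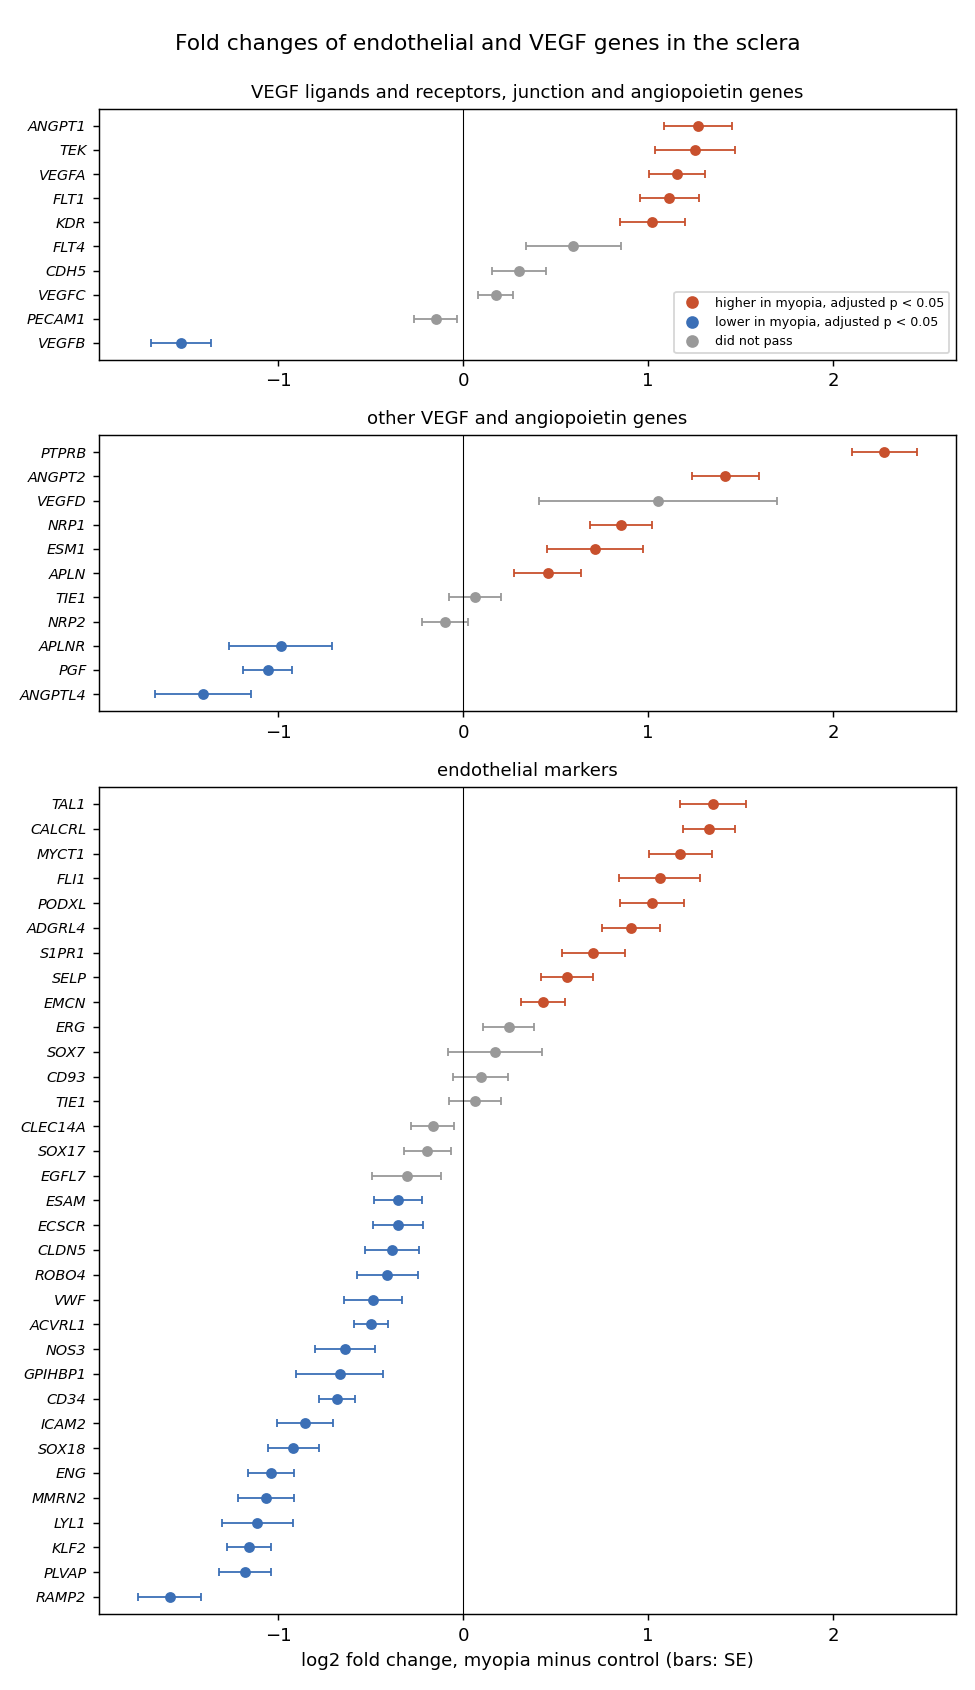
Log2 fold change, myopia minus control, with its SE (x axis) for the 10 genes (top), other VEGF and angiopoietin genes (middle) and endothelial markers (bottom), coloured by whether the gene passed an adjusted p of 0.05. Each panel holds genes on both sides of 0, and the endothelial markers run from -1.59 (RAMP2) to 1.35 (TAL1).

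Downstream of the receptors, 6 of 20 tested signal transducers rose and 10 fell (median -0.24). The background for this count and for those of the lists below was 36.9% higher and 35.1% lower over all tested genes. PIK3CA, the catalytic subunit of PI3-kinase, rose by 1.41 ± 0.11, and AKT1, the kinase it feeds, fell by 0.72 ± 0.07 on the log2 scale. HSPB1, a stress protein phosphorylated below KDR, fell by 1.39 ± 0.13. Of 12 Notch and arteriovenous genes 6 rose and 3 fell (median 0.28). JAG1, a Notch ligand, rose by 1.34 ± 0.18, while HES1, a Notch target, fell by 0.84 ± 0.10. EPHB4, a venous receptor, fell by 0.56 ± 0.08, a call that ended with scaling by total count (-0.12). HEY1, also a Notch target, and NR2F2, also a venous gene, rose by 0.32 ± 0.13 and 0.62 ± 0.13, and HEY2 did not pass. HEY1, HEY2 and NR2F2 were named after their values were seen. Among 10 regulators of VEGFA, most of them genes of oxygen sensing, 6 rose and 2 fell (median 0.53). HIF1A, ARNT and EGLN2, a hydroxylase that marks HIF for breakdown, had log2 fold changes of 1.25 ± 0.15, 1.24 ± 0.16 and -0.90 ± 0.12. The genes of HIF breakdown ran both ways. EGLN1, a related hydroxylase, and VHL, also of HIF breakdown, rose by 0.63 ± 0.11 and 1.74 ± 0.33, and EGLN3 did not pass. HIF3A was at -1.34 ± 0.28. EGLN1, VHL, EGLN3 and HIF3A were named after their values were seen. Of 10 angiogenesis inhibitors 2 rose and 3 fell (median 0.04), with THBS1 at 1.36 ± 0.18, TIMP3, which blocks KDR, at -0.95 ± 0.10, and SPARC at -0.85 ± 0.14. With scaling by total count AKT1, HSPB1, HES1, EGLN2, TIMP3 and SPARC still passed as lower, at -0.26, -0.92, -0.40, -0.44, -0.51 and -0.39.

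All 7 lymphatic markers passed, 3 of them as higher and 4 as lower (median -0.44), where 71.9% of all tested genes passed. PROX1, the transcription factor that sets lymphatic identity, rose from 2.01 ± 0.96 to 4.88 ± 1.4 CPM and MMRN1 from 0.906 ± 0.62 to 3.00 ± 0.99 CPM. FOXC2, a factor of lymphatic valves, fell by 0.54 ± 0.12 on the log2 scale, a call that ended with scaling by total count (-0.10). The count of 4 lower was 2 without control 3, control 4, control 5, myopia 2 or myopia 5, 1 without control 4 and 5 together, and 0 with scaling by total count. Of 13 genes of mural cells (pericytes and smooth muscle) and of their recruitment, 4 rose, 4 fell and 5 did not pass (median -0.10). The 3 of smallest p were the pericyte genes RGS5 and ABCC9, which rose by 2.02 ± 0.27 and 2.35 ± 0.37, and CNN1, a smooth muscle gene, which fell by 1.20 ± 0.23 (-0.73 with scaling by total count). They do not stand for their cell types. The pericyte genes PDGFRB and CSPG4 were at -0.10 ± 0.11 and 0.08 ± 0.10 and the smooth muscle genes MYH11 and ACTA2 at 0.20 ± 0.18 and -0.28 ± 0.19, all named after their values were seen, and none of these 4 passed.

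Summed markers of red cells, of leukocytes and platelets, of photoreceptors and of fibroblasts separated the groups. Those of melanocytes, retinal pigment epithelium and skeletal muscle overlapped. All 4 tested red cell genes were lower, and the 5 measured summed to 2504 to 10561 CPM in control and 100 to 456 CPM in myopia. HBB, HBA and ALAS2 had log2 fold changes of -4.64 ± 0.47, -4.76 ± 0.49 and -4.48 ± 0.54. Of 11 leukocyte and platelet genes 3 rose and 7 fell, and the sum was 303 to 391 CPM against 171 to 211 CPM. CD14, CSF1R and CD68, which fell, had the smallest p. PTPRC (CD45), the general leukocyte marker, rose from 8.65 ± 2.5 to 20.5 ± 3.5 CPM and was named after its values were seen. Of 8 melanocyte genes, a sign of choroid, 2 rose (MITF and DCT) and 4 fell, PMEL among them, with sums of 146 to 438 CPM and 54.7 to 220 CPM. Of 6 genes of the retinal pigment epithelium 2 rose (LRAT and RPE65) and 1 fell (RGR), with sums of 38.5 to 71.6 CPM and 29.1 to 65.9 CPM. Photoreceptor genes fell in 4 of 7 cases, among them NRL, RCVRN and SAG, with sums of 131 to 206 CPM and 37.5 to 115 CPM. Of 8 skeletal muscle genes 2 rose (NEB and TTN) and 2 fell, ACTA1 among them (sums 2178 to 6337 CPM and 2062 to 4740 CPM). Fibroblast genes, the defining genes of sclera, were present at 127177 to 159573 CPM in control and 71923 to 99028 CPM in myopia. Of those 10 genes 2 rose, 5 fell and 3 did not pass, and COL1A1, COL5A1 and COL3A1, which fell, had the smallest p. COL1A1 alone averaged 82728 ± 9358 CPM in control and 35555 ± 3273 CPM in myopia, so the fibroblast sums lean heavily on that gene. Those sums do not stand for all 10 genes. Leaving PTPRC aside, SAG, RPE65 and ACTA1 were the named genes that did not pass without control 4 and 5. RGR and ACTA1 did not pass with scaling by total count, nor RPE65 without control 4 or myopia 3. In these lists no measured gene was at 0 in all libraries, and their part in the changes of the VEGF and endothelial genes was not tested.

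The 10 genes also differed in how alike their profiles over the 10 libraries were. By the root mean square difference of centred log2 CPM, TEK and ANGPT1 were the closest pair (0.158), followed by FLT1 and KDR (0.176) and by KDR and TEK (0.184). PECAM1 and CDH5 were farther apart (0.298), and VEGFB lay at least 0.749 from each of the others. Outside the 10, the genes closest to VEGFA were a second table line of the symbol ABCG2 (0.126), GRIK2 (0.130) and TMBIM4 (0.145). Those closest to CDH5 were NR2F1 (0.0864), FICD (0.101) and CELSR2 (0.110), among genes with a mean of at least 2 CPM.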

How the data were processed

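The authors deposited raw counts of reads per gene symbol, 1 column per library. The library kit is of the SMARTer mRNA family, per the labels' protocols. The submitters' processing notes list GRCm38 and mm10, both builds of the mouse genome, with no role given. No source here names the aligner, counter, annotation or strand setting, so antisense or overlapping genes cannot be told apart, and no coordinate or transcript length was used. The 10 symbols are all in the RefSeq guinea pig gene table (mCavPor4.1), used for names only. In the table FLT1 and FLT4 are written Flt1 and Flt4.

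Of 18079 lines, 437 without a symbol (0.751% to 1.69% of counts) were left out. Where a symbol has several lines, the highest kept the plain name. Genes were filtered with filterByExpr (minimum count 10, minimum total 15) and compared in R 4.3.3 by edgeR 4.0.16 (TMM, robust quasi-likelihood fit, group only), and p-values were adjusted over all genes tested. The SE of a log2 fold change was taken from the F statistic (its size over the root of F), and intervals use the fit's degrees of freedom. Ratios used a prior count of 0.5, and log2 CPM profiles a prior count of 2. Alternatives were other scalings and filters, DESeq2 1.42.0, limma 3.58.1 (voom), a replicate block and leaving out libraries. Same-numbered control and myopia libraries did not deviate together (correlations -0.129 to 0.0130), so numbers were not taken as pairs. No library was a copy of another in its group (chi-square over degrees of freedom at least 18.9). On simulated data for 14683 genes, 200 were changed, equally up and down. The test recovered 72% of those changed 2-fold and 95% of those changed 4-fold, with 14 unchanged genes called. In the real data 71.9% of genes passed, so these figures need not hold there. The members and 15 lists were chosen with earlier results of these data known. The rule for naming genes took the 10 members, HIF1A, ANGPT2, NRP1, NRP2, PGF, TIE1 and COL1A1, up to 3 genes of smallest p from each list, and the 3 closest to VEGFA and to CDH5. Genes named outside that rule are marked in the text as chosen after their values were seen. A gene fixed for naming is not reported here.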

Additional observations from a re-analysis of the deposited data

How the results depend on the processing

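VEGFA, VEGFB, FLT1, KDR, TEK and ANGPT1 kept their direction and passed in each of 22 alternatives, with log2 fold changes of 1.07 to 1.59, -1.74 to -1.05, 1.03 to 1.54, 0.92 to 1.44, 1.15 to 1.67 and 1.18 to 1.69. PECAM1 passed in 0 of 22 and turned to 0.30 with scaling by total count. With that scaling VEGFC, FLT4 and CDH5 passed at 0.63, 1.04 and 0.74, the 10 genes had 8 higher, 2751 of all genes were lower (5149 with TMM), 9 endothelial markers were lower, and NRP2 turned to 0.34. With upper quartile factors VEGFC (0.25) and FLT4 (0.67) passed. FLT4 also passed with DESeq2 (0.58), limma-voom (0.64), voom with quality weights (0.66), a replicate block (0.64) and lines of a symbol summed (0.61). CDH5 passed with quality weights (0.36) and without control 4 and 5 (0.45). TIE1 had -0.0062 with quality weights and -0.0026 without control 4 and 5. Leaving out 1 library at a time gave 0.46 to 0.79 for FLT4, 0.21 to 0.43 for CDH5, -0.0044 to 0.16 for TIE1, -0.056 to 0.076 for the log2 change of ANGPT1:TEK (-0.037 without control 4 and 5), -0.026 to 0.12 for FLT1:KDR, and 3 to 5 higher among the other pathway genes. The block changed no other call of the 10 genes. With the ratios paired by number (replicate block, sign-flip), 5 pairs cannot pass: VEGFA:VEGFB (2.67), VEGFC:VEGFA (-1.01), PECAM1:CDH5 (-0.45) and TEK:CDH5 (1.00) had adjusted p = 0.125. The cause of these changes was not tested. The share of counting error in the spread between eyes was not estimated.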
